A study of Mus musculus with 6 samples.

Results

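Genes that sense foreign nucleic acid, carry the interferon signal or respond to it were examined in wild-type and Pml knockout mouse embryonic stem cells. The set holds 35 genes chosen by symbol, all of them present among the 24421 genes of the deposited table. Polyadenylated RNA of the E14 line was sequenced in 3 wild-type libraries and in 3 libraries of Pml-/- cells, and both groups were grown with serum, leukemia inhibitory factor, the GSK3 inhibitor CHIR99021 and the MEK inhibitor PD0325901. No interferon or virus treatment is named for either group. The labels leave unsaid which part of Pml was disrupted and whether replicates were separate cultures or clones. All knockout columns are headed KO34, which reads like the name of 1 line. The p-values therefore describe the spread among these libraries, which may be technical.

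In the textbook pathway, the helicases encoded by Ddx58 (RIG-I) and Ifih1 (MDA5) bind viral RNA and signal through the mitochondrial adaptor Mavs and the kinase Tbk1 to the transcription factors Irf3 and Irf7, which switch on interferon genes. Secreted type I interferon binds the receptor chains Ifnar1 and Ifnar2, and a complex that holds Stat2 and Irf9 then binds the interferon-stimulated response element (ISRE) in the promoters of antiviral genes such as Isg15, the Ifit, Oas and Mx genes. Pluripotent stem cells are known for a weak interferon response and for constant transcription of some antiviral genes, among them the Ifitm family. Pml, whose protein builds the PML nuclear bodies, is itself an interferon-induced gene.

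The ISRE was searched in promoter windows as the letters GAAANNGAAA on both strands, with matches allowed to overlap. RefSeq (GRCm38.p6) gave windows for 27 of the 35 genes, from 250 bases before the transcription start to 50 bases after it. A match lay in the windows of 13 of these 27 genes (48.1%), against 3.99% of all 27025 genes with a window. Of 48 interferon-stimulated genes outside the set that had a window, 19 held a match (39.6%). The gamma-activated site, searched as TTCNNNGAA, which reads the same on both strands, lay in 8 of the 27 (29.6%), against 9.55% of all genes. Among the 48 genes outside the set it lay in 10 (20.8%). The 250 bases before the start are shown 5′ to 3′ on the gene's strand for the 4 genes that differed between the groups and for Isg15 and Ifit1, which carried ISRE matches and were at or near 0 reads. Capitals mark ISRE matches.
Stat2 (chr10:128270248-128270497, plus strand): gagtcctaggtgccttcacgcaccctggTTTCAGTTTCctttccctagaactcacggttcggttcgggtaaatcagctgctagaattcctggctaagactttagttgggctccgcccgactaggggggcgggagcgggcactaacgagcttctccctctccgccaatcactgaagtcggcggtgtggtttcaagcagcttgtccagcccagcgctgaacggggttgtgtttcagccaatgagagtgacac
Ifitm2 (chr7:140955962-140956211, minus strand): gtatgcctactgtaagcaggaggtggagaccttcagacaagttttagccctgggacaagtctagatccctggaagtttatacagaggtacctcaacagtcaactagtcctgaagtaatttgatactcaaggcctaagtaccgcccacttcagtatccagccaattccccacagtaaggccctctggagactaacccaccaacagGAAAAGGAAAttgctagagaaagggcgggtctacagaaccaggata
Oas1a (chr5:120907526-120907775, minus strand): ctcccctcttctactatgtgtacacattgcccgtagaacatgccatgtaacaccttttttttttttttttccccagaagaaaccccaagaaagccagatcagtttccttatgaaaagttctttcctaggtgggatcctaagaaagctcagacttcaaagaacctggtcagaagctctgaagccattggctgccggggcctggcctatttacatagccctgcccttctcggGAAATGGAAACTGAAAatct
Bst2 (chr8:71537473-71537722, minus strand): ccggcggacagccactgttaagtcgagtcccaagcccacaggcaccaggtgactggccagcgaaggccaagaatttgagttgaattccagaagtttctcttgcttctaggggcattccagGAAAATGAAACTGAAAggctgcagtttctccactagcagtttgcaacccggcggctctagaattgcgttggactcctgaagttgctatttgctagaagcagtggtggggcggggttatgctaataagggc
Isg15 (chr4:156200819-156201068, minus strand): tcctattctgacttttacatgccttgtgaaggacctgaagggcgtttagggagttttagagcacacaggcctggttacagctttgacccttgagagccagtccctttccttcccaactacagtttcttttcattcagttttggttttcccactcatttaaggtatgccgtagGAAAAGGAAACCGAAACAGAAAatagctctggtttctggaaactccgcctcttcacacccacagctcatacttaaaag
Ifit1 (chr19:34640639-34640888, plus strand): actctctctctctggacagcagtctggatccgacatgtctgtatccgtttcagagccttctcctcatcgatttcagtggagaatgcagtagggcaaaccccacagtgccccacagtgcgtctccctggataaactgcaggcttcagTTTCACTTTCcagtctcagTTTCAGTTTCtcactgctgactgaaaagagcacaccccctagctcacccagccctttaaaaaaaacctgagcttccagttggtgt
With the start base counted as 0, the match of Stat2 ran from -222 to -213 and that of Ifitm2 from -46 to -37. Oas1a held overlapping matches between -20 and -5, Bst2 between -130 and -115, and Isg15 a run of 3 between -78 and -57. A match is a description of these letters and shows no binding.

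Read totals were between 9389186 and 11046725 in the wild-type libraries and between 5845653 and 8693079 in the knockout libraries. Expression is in CPM, a gene's read count scaled by the total of its library, and means carry their SD (n = 3 for each genotype). Log2 fold changes compare knockout with wild type after 1 is added to each CPM, so that changes of low genes come out too small, and were tested with limma over 12435 genes. Pml stood at 187, 194 and 193 CPM in wild-type replicates 1, 2 and 3 and at 77.3, 75.4 and 76.3 CPM in the knockout, a log2 fold change of -1.31 (limma adjusted p = 1.28e-20). Of 8 embryonic stem cell markers, such as Pou5f1 and Nanog, all were measured, with a summed level of 6867 to 7036 CPM in wild type and 7034 to 7202 CPM in the knockout; of these Tdgf1 was called higher (log2 fold change 0.35, limma adjusted p = 1.34e-05) and 7 did not pass. Of 8 leukocyte markers 3, Ptprc, Lyz2 and Adgre1, were at 0 in every library, and the list summed to 20.7 to 24.1 CPM in wild type and 17.6 to 22.3 CPM in the knockout. Most of this sum was Cd68, with means of 16.4 CPM in wild type and 13.9 CPM in the knockout. Cd68, Cd3e and Itgam passed the filter on low values, and none of them was called. The 8 fibroblast markers, which feeder cells would carry, summed to 1237 to 1309 CPM in wild type and 1341 to 1372 CPM in the knockout. Almost all of this sum came from Vim and Fn1. Postn was at 0 and Col3a1 had 2 reads in all. Only 4 of the 8 were tested, and all 4 were called, beside 14.0% of all genes tested. Fn1 and Pdgfrb were higher (log2 fold change 0.3 and 0.39), and Vim and Thy1 were lower (-0.46 and -0.95). The part of these cell markers in the members' levels was not tested.

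In bulk RNA, fewer cells that transcribe a gene and less RNA per cell cannot be told apart. The members fell into a group of measurable genes and a group at or near 0. In wild-type cells 22 of the 35 averaged at least 1 CPM, and these 22 were the members that passed the filter on low values. Of them 2 were higher in the knockout, Stat2 and Ifitm2, 2 were lower, Oas1a and Bst2, and 18 did not pass the test at a limma adjusted p under 0.05. Over all genes tested 14.0% were called, 6.54% as higher and 7.49% as lower, against 18.2% of the tested members. For 6 of the 22 members (27.3%) every library of 1 group lay on the same side of the other group, against 30.2% of all genes tested. Log2 fold changes lay above 0 for 11 members and below 0 for 11, with a median of -0.00424 beside 0.00463 over all genes tested. The absolute change had a median of 0.126 among the members and 0.0952 over all genes. With wild-type replicate 1, wild-type replicate 2 or knockout replicate 3 left out in turn, the number of lower members was 1, with Bst2 lost. Over all genes, 512 in place of 813 were higher without wild-type replicate 2.

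**Figure D1:**
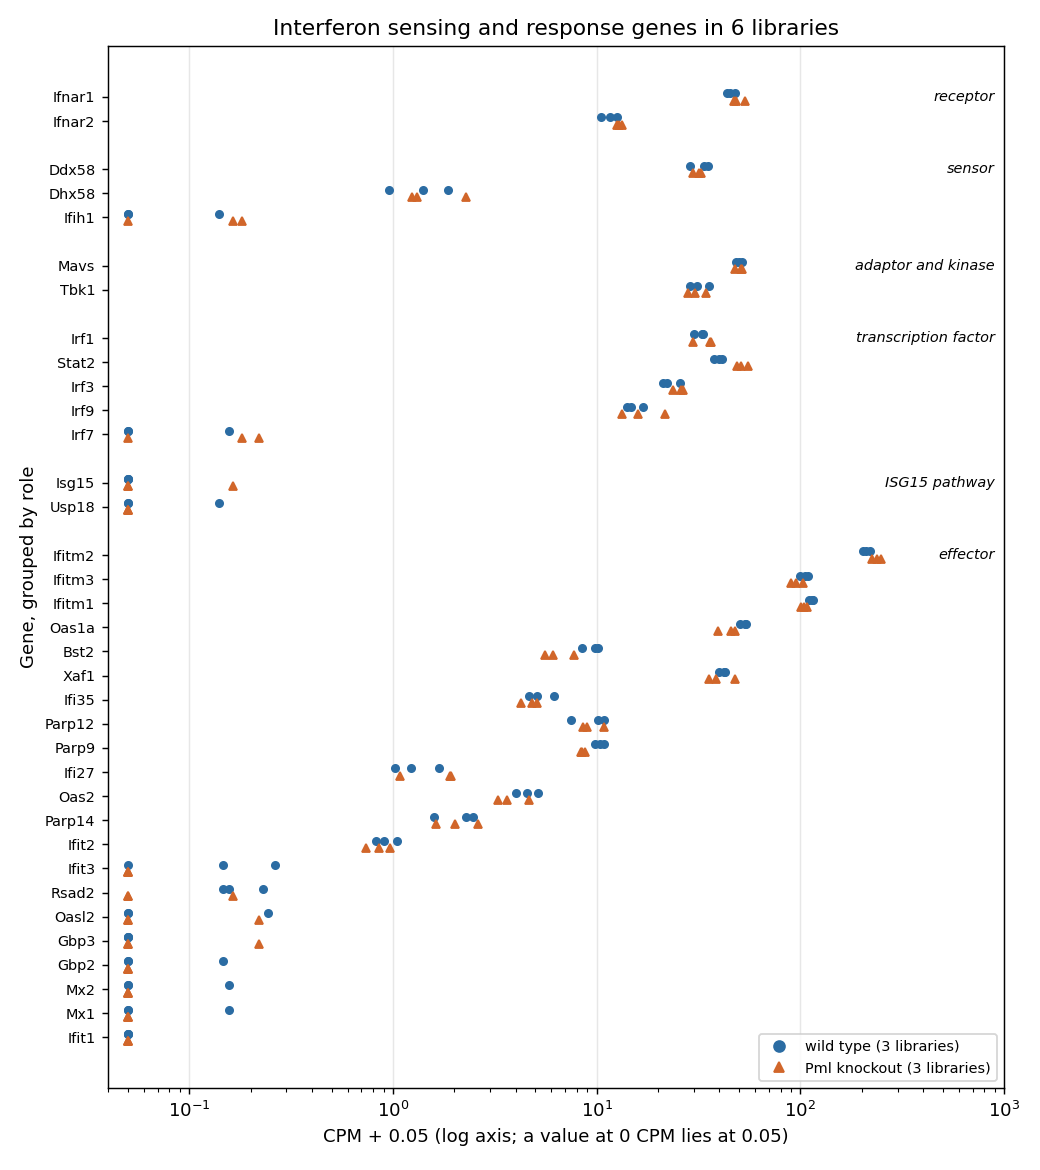
CPM of the 35 genes in each of the 6 libraries, with 0.05 added and on a log axis, grouped by role and ordered within a role by level per exon length; circles are wild-type and triangles knockout libraries. The Ifitm genes lie near or above 100 CPM, and 12 genes lie at or close to 0 in every library.

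A total of 12 members had 5 reads or fewer over all 6 libraries. These were the ubiquitin-like modifier Isg15 and its protease Usp18, the RNA sensor Ifih1, the transcription factor Irf7, and the antiviral effectors Ifit1, Ifit3, Oasl2, Rsad2, Mx1, Mx2, Gbp2 and Gbp3. Together they had 15 reads among 30761105 in wild type and 8 among 22123235 in the knockout, and no library reached more than 0.213 CPM for any of them. Ifit1 had 0 reads in all libraries, which allows a level of up to 0.0975 CPM in the wild-type group and 0.136 CPM in the knockout group (3 reads over the group, counting error only). Rsad2, which encodes viperin, had 4 wild-type reads and 1 knockout read, and Ifit3 had 3 and 0. A difference between the groups was not detectable at this depth for these 12 genes, and no fold change is given. Ifit2, an RNA-binding antiviral protein gene, was also below the filter, at 0.874 ± 0.112 CPM in wild type and 0.804 ± 0.119 CPM in the knockout (n = 3).

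Of the 12 genes near 0, RefSeq windows were at hand for 9, and 7 of these held an ISRE match: Isg15, Ifit1, Ifit3, Rsad2, Gbp2, Gbp3 and Ifih1. Of the 18 genes with more than 10 reads and a window, 6 held a match, and these were the 4 called members with Ddx58 and Ifitm3. No window was at hand for Oas2, Ifi27, Parp9, Parp14 and Dhx58, which were tested and not called, or for Usp18, Mx1 and Mx2. Whether matches go with calls was not tested. Matches were thus present at genes at or near 0 reads and at Ifitm2, the member with the highest level per kilobase of exon.

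**Figure D2:**
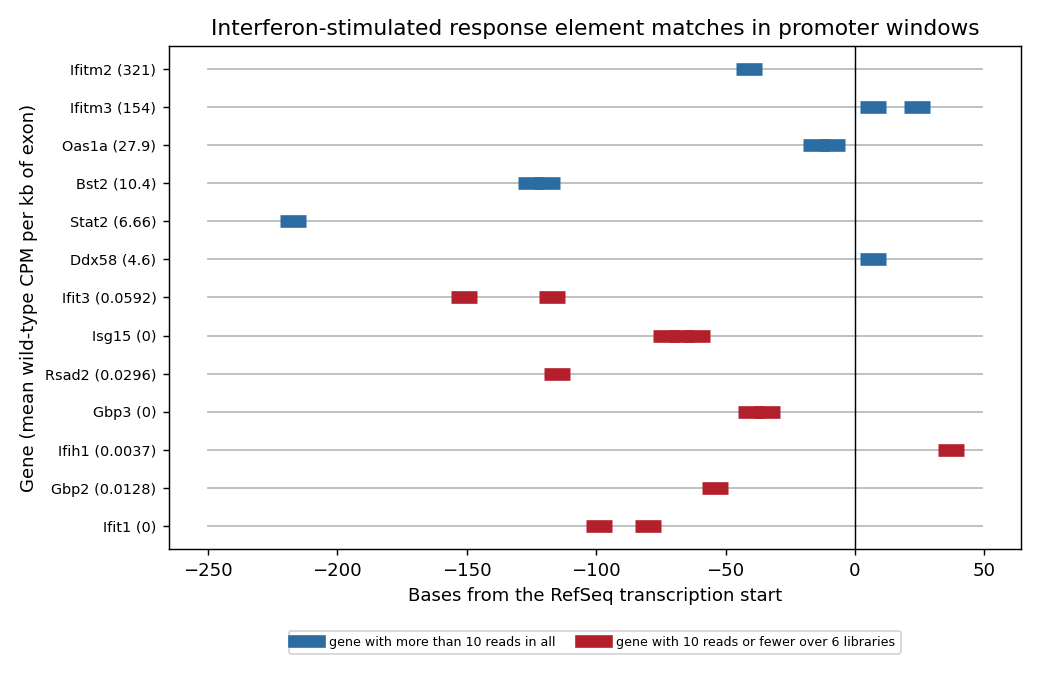
Position of each ISRE match (bars, 10 bases long) in the promoter windows of the 13 genes that hold one, in bases from the RefSeq transcription start, ordered from the highest to the lowest level per kilobase of exon over all libraries; the number after each gene is its mean wild-type CPM per kilobase. The genes with at most 10 reads over the 6 libraries, drawn in red, hold matches both before and after the start.

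The interferon receptor was measured in both groups. Ifnar1, a chain of the type I interferon receptor, stood at 43.5, 45.3 and 47.9 CPM in wild-type replicates 1, 2 and 3 and at 46.9, 53.7 and 48.1 CPM in the knockout replicates. The groups overlapped, and the log2 fold change of 0.12 did not pass (95% interval -0.01 to 0.25, limma adjusted p = 0.239). Ifnar2, its partner chain, stood at 11.6 ± 1.07 and 12.9 ± 0.414 CPM and did not pass either (log2 fold change 0.15, 95% interval -0.07 to 0.37, limma adjusted p = 0.398).

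Of the RNA sensors, Ddx58 was well above Ifih1 and Dhx58. Ddx58 stood at 35.03, 33.4 and 28.8 CPM in the wild-type replicates and at 32.6, 29.6 and 31.7 CPM in the knockout replicates, with overlapping groups. Per kilobase of exon the wild-type level was 4.60 CPM for Ddx58, 0.415 CPM for Dhx58, a helicase that tunes the other sensors, and 0.0037 CPM for Ifih1. Downstream, the adaptor Mavs stood at 50.1, 48.2 and 51.7 CPM in the wild-type libraries and at 51.7, 51.3 and 47.7 CPM in the knockout. Its log2 fold change of 0.01 had a 95% interval of -0.11 to 0.13. The kinase Tbk1 stood at 31.6 ± 3.44 and 30.8 ± 3.17 CPM (log2 fold change -0.04, 95% interval -0.21 to 0.13). None of Ddx58, Dhx58, Mavs and Tbk1 passed limma or edgeR, or had an unadjusted limma p under 0.05.

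Among the transcription factors, Stat2 rose. Stat2 (GENCODE M21, mm10, chromosome 10, 128270559 to 128292849) stood at 37.7, 41.0 and 39.6 CPM in wild-type replicates 1, 2 and 3 and at 55.2, 51.1 and 48.5 CPM in the knockout replicates. Every knockout library lay above every wild-type library. The difference was 30.1% on the log2(CPM + 1) scale, a log2 fold change of 0.38 (SE 0.0637, limma adjusted p = 9.11e-05). It passed in all 14 alternative settings, with log2 fold changes between 0.33 and 0.42 and adjusted p between 6.43e-08 and 0.00156. Within 500 kb on either side, 6 of 37 tested genes were higher and 1 was lower, 18.9% called beside 14.0% of all genes tested. Over all genes tested 6.54% were higher and 7.49% lower. The median log2 fold change of the 37 was 0.06. The part of the neighbourhood in the level of Stat2 was not tested.

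Irf9, the DNA-binding partner of Stat2, did not pass. It stood at 16.7, 14.7 and 14.06 CPM in the wild-type libraries and at 21.5, 13.3 and 16.0 CPM in the knockout, where knockout replicate 1 was the highest library and knockout replicate 2 the lowest. Its log2 fold change was 0.13 (95% interval -0.12 to 0.37), and it was -0.05 without knockout replicate 1. The ratio of Stat2 to Irf9 CPM was 2.62 ± 0.316 in wild type and 3.15 ± 0.639 in the knockout (n = 3 each, exact permutation test, two-sided p = 0.4; the smallest p this design allows is 0.1).

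The other tested transcription factors did not pass. Irf1, which binds the same promoter element, stood at 32.8, 33.0 and 30.03 CPM in the wild-type libraries and at 35.9, 29.8 and 36.4 CPM in the knockout (95% interval of the log2 fold change -0.08 to 0.24). Irf3, the factor that Tbk1 phosphorylates, stood at 22.9 ± 2.36 and 25.3 ± 1.53 CPM (-0.04 to 0.32). Irf7, which amplifies interferon transcription, had 1 wild-type read and 2 knockout reads and was not tested.

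**Figure D3:**
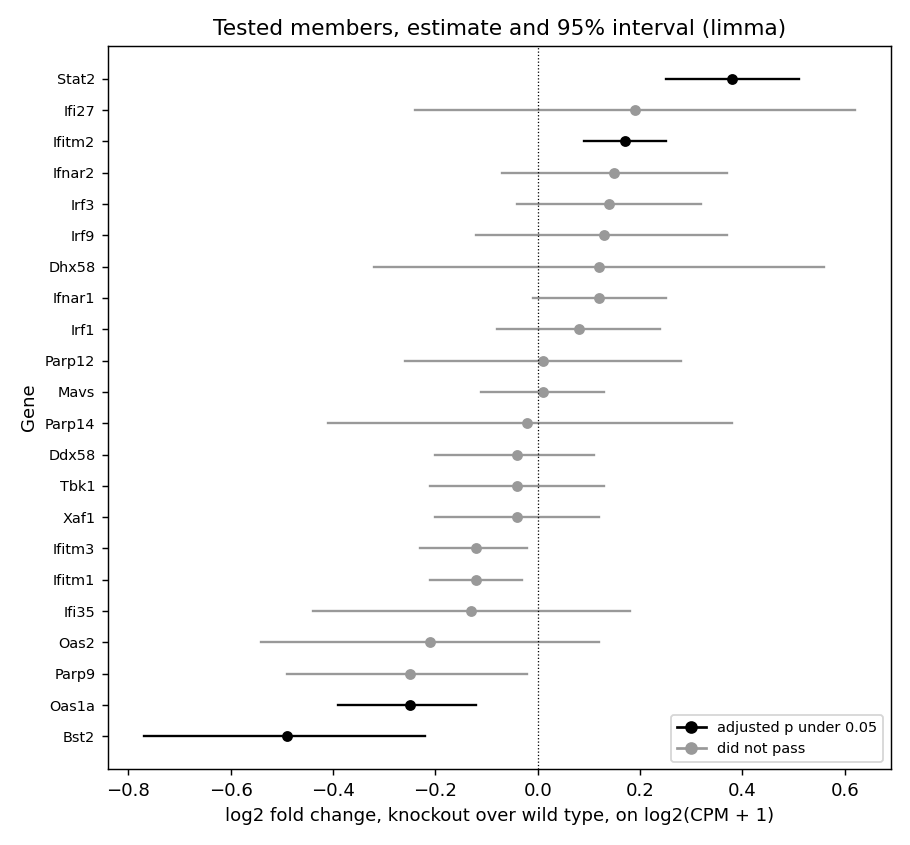
Log2 fold change, knockout over wild type, of the 22 tested members with the 95% interval of the limma fit; black marks members with an adjusted p under 0.05 and grey the others. Stat2 and Ifitm2 lie above 0 and Oas1a and Bst2 below it.

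The Ifitm genes encode small membrane proteins that block viral entry and were the most abundant members. Ifitm2, Ifitm1 and Ifitm3 lie side by side on chromosome 7 (mm10, from 140954837 to 141010770), and per kilobase of exon they had wild-type levels of 321, 103 and 154 CPM. Averaged over all 6 libraries, each lay above at least 96.2% of the tested genes per kilobase of exon. Ifitm2 stood at 209, 219 and 204 CPM in wild-type replicates 1, 2 and 3 and at 225, 249.6 and 237 CPM in the knockout replicates. The knockout libraries all lay above the wild-type libraries, and Ifitm2 rose by 0.17 on the log2 scale (SE 0.0388, limma adjusted p = 0.00255). It passed in all 14 alternative settings, with adjusted p between 4.09e-06 and 0.027. Within 500 kb on either side, 2 of 29 tested genes were higher and 1 was lower, 10.3% called beside 14.0% of all genes tested. Their median log2 fold change was 0.05.

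The neighbours of Ifitm2 had estimates of the other sign. Ifitm1 stood at 114, 115 and 110.2 CPM in the wild-type libraries and at 104, 101 and 108 CPM in the knockout, with no overlap and a log2 fold change of -0.12 (95% interval -0.21 to -0.03, limma adjusted p = 0.076). Ifitm3 stood at 105, 109 and 99.3 CPM in the wild-type libraries and at 89.8, 103 and 94.8 CPM in the knockout, with overlap and a log2 fold change of -0.12 (limma adjusted p = 0.104). Without knockout replicate 2, Ifitm3 passed at 0.0136, within a range of 0.0136 to 0.373 over its alternatives. The ratio of Ifitm2 to the sum of Ifitm1 and Ifitm3 was 0.954, 0.975 and 0.972 in the wild-type replicates and 1.16, 1.22 and 1.17 in the knockout replicates, with no overlap (exact permutation test over 3 against 3 libraries, two-sided p = 0.1, the smallest this design allows). It is built from the values above, where Ifitm2 was higher and Ifitm1 lower without overlap, so it adds no separate support. The summed level of Ifitm1, Ifitm2 and Ifitm3 was 428 ± 14.8 CPM in wild type and 437 ± 17.3 CPM in the knockout (n = 3 each, exact permutation p = 0.5).

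Reads can be shared between copies in this family, or between gene models that overlap. Of the 50-base words of the longest Ifitm2 transcript 48.5% also occur in transcripts of other genes, most of them in the overlapping model Gm45717, against 6.36% for Ifitm1 and 10% for Ifitm3. Gm45717 overlaps the Ifitm2 exons on the same strand over 268 bases (40.9% of exon length) and held 36.1% of all Ifitm2 words. Words in this overlap come from the same stretch of the genome and not from a separate copy. It is unknown how shared reads entered the authors' counts. The level of Ifitm2 is therefore uncertain by an amount that was not tested. Of the other Ifitm genes, Ifitm5 and Ifitm7 were tested and 0 passed limma; Ifitm7 stood at 0.724, 1.06 and 1.28 CPM in the wild-type libraries and at 3.30, 1.37 and 1.73 CPM in the knockout with no overlap (log2 fold change 0.59, limma adjusted p = 0.0717). On the recovered reads, which numbered 31 and 48, edgeR gave Ifitm7 a log2 fold change of 1.09 and an adjusted p of 0.0303.

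**Figure D4:**
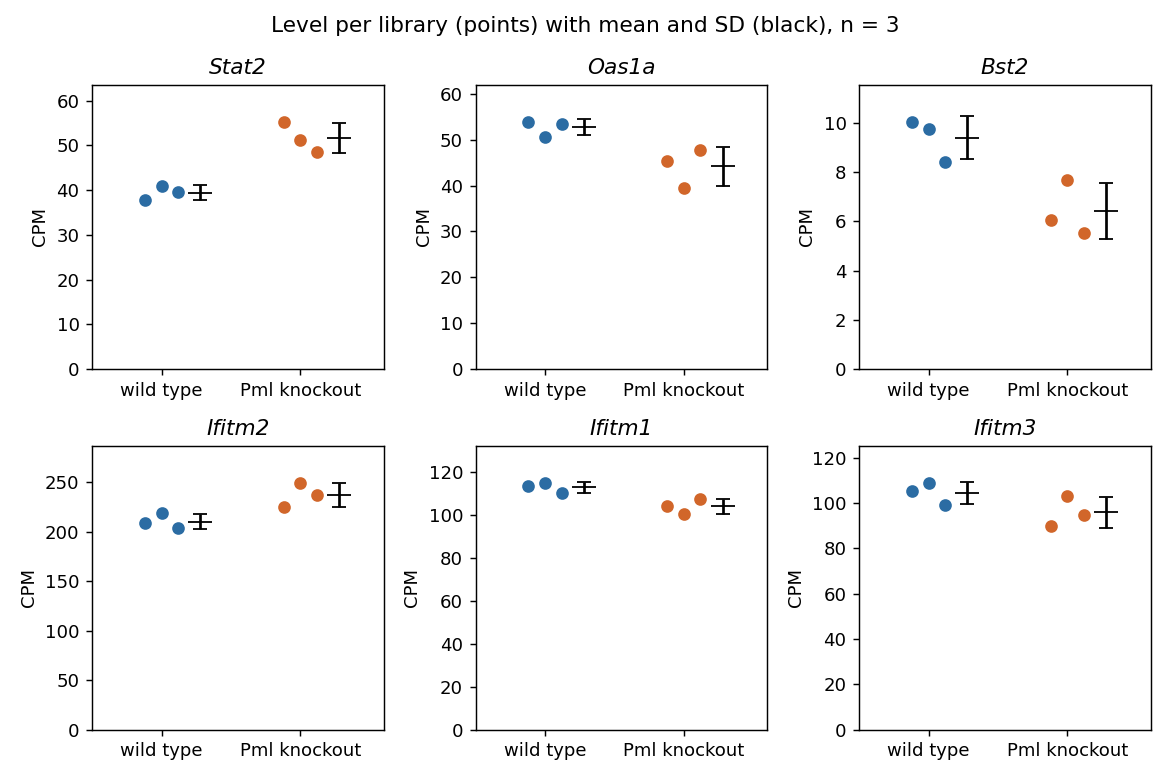
CPM in each of the 3 wild-type and 3 knockout libraries (points, replicates 1 to 3 from left to right) with the mean and SD in black, for the 4 called members and for Ifitm1 and Ifitm3; each axis starts at 0. Stat2 and Ifitm2 are higher in every knockout library, and Oas1a and Bst2 are lower in every knockout library.

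Oas1a, an oligoadenylate synthetase that activates RNase L when it meets double-stranded RNA, fell. It lies on chromosome 5 (mm10, 120896256 to 120907521) and stood at 53.9, 50.7 and 53.5 CPM in wild-type replicates 1, 2 and 3 and at 45.4, 39.5 and 47.7 CPM in the knockout replicates. The groups did not overlap, with knockout replicate 2 the lowest library, and the log2 fold change of -0.25 had an SE of 0.0656 and a limma adjusted p of 0.00905. Without knockout replicate 2 the adjusted p was 0.0583 and the log2 fold change -0.17, and DESeq2 on recovered reads gave 0.0711; over the alternatives it lay between 0.000567 and 0.0711. Of 18 tested genes within 500 kb on either side of Oas1a, 3 were lower by limma and 15 did not pass, with a median log2 fold change of -0.07. This makes 16.7% called, all of them lower, beside 7.49% lower and 14.0% called among all genes tested. The part of the neighbourhood in the level of Oas1a was not tested. Of the 50-base words of Oas1a, 57.6% also occur in the adjacent copy Oas1g, which shares its locus in the deposited table, so the split between them is uncertain. Oas1g stood at 17.9, 21.8 and 18.7 CPM in the wild-type libraries and at 14.4, 16.4 and 17.7 CPM in the knockout, a log2 fold change of -0.25 that did not pass (limma adjusted p = 0.0889). Oas2, a related synthetase with none of its 50-base words in other genes, stood at 4.54 ± 0.571 and 3.81 ± 0.722 CPM and did not pass (95% interval of the log2 fold change -0.54 to 0.12).

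Bst2, which encodes tetherin, a protein that holds budding virus particles at the cell surface, fell. It lies on chromosome 8 (mm10, 71534255 to 71537456) and stood at 10.05, 9.78 and 8.41 CPM in wild-type replicates 1, 2 and 3 and at 6.06, 7.70 and 5.52 CPM in the knockout replicates, from 291 and 139 reads. The groups did not overlap, and the log2 fold change of -0.49 had an SE of 0.135 and a limma adjusted p of 0.0124. The adjusted p was 0.073, 0.06 and 0.0773 with wild-type replicate 1, wild-type replicate 2 and knockout replicate 3 left out in turn, 0.0618 when low genes were not filtered out and 0.0796 with DESeq2, within a range of 0.00188 to 0.0796 over the alternatives. Of 26 tested genes within 500 kb of Bst2 on either side, 6 were lower by limma and 20 did not pass. This makes 23.1% called, all of them lower, beside 7.49% lower and 14.0% called among all genes tested. The median log2 fold change of the 26 was -0.09. On the whole of chromosome 8 the median was -0.05, with 90 of 641 genes lower and 17 higher, 16.7% called. The part of the neighbourhood or the chromosome in the level of Bst2 was not tested.

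The remaining effectors did not pass the test. Parp9, an ADP-ribosyltransferase family member that pairs with Dtx3l, stood at 10.8, 10.4 and 9.80 CPM in the wild-type libraries and at 8.31, 8.38 and 8.74 CPM in the knockout, with no overlap, and had a limma adjusted p of 0.153 (log2 fold change -0.25, 95% interval -0.49 to -0.02). Its exons overlap those of Dtx3l on the opposite strand over 458 bases, and no source used here says whether strand was used in counting. Xaf1, a gene that promotes cell death, stood at 41.5 ± 1.43 and 40.6 ± 6.29 CPM, with knockout replicate 1 the highest library at 47.7 CPM. Parp12 stood at 9.42 ± 1.76 and 9.44 ± 1.20 CPM and Ifi35 at 5.25 ± 0.777 and 4.69 ± 0.430 CPM. Parp14, Ifi27 and the sensor Dhx58 stood between 1.26 and 2.07 CPM in both groups, where the 95% intervals of the log2 fold change ran from -0.41 at the lowest to 0.62 at the highest. Among the 12 members that did not pass and had at least 10 CPM in wild type, the intervals lay between -0.49 and 0.37.

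Genes of the pathway outside the set were taken from 5 lists. Transcripts of interferons themselves were at or near 0: of 12 ligand genes 10, among them Ifnb1 and Ifna4, had 0 reads in all libraries, while Ifnz had 1 read and Ifnl2 had 2, all in wild type. Of the 114 genes of the lists 64 were tested, 5 were higher, 5 were lower and 54 did not pass, which makes 15.6% called beside 14.0% of all genes tested. Their median log2 fold change was 0.02. The number of higher genes was 3 when wild-type replicate 2 was left out, 2 without wild-type replicate 3, 2 without knockout replicate 3 and 8 without knockout replicate 2, and the number of lower genes was 8 without knockout replicate 2. With DESeq2, 1 was higher, and with edgeR 7 were higher and 5 lower.

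Among 15 receptor and JAK-STAT genes, all tested, 1 was lower (6.67% called, beside 14.0% of all genes tested). Ifngr2, a chain of the interferon gamma receptor, went from 11.7, 13.3 and 13.4 CPM in wild type to 7.51, 9.75 and 7.59 CPM in the knockout (log2 fold change -0.58, SE 0.121, limma adjusted p = 0.00134). All knockout libraries lay below all wild-type libraries. The other chain, Ifngr1, stood at 4.09 ± 0.578 and 4.06 ± 1.38 CPM.

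Among 25 further sensor and adaptor genes, 17 were tested, 2 were higher and 1 was lower (17.65% called, beside 14.0% of all genes tested). Tbkbp1, which encodes an adaptor of Tbk1, fell from 16.7 ± 2.44 to 9.51 ± 2.19 CPM (log2 fold change -0.76, limma adjusted p = 0.000118). Rnf135, a ubiquitin ligase that activates RIG-I, rose from 11.1 ± 1.21 to 15.2 ± 1.246 CPM (0.42, limma adjusted p = 0.00849, and 0.0678 without wild-type replicate 3, within 0.00163 to 0.0686 over its alternatives). Aim2, a sensor of cytosolic DNA, rose from 35.9 ± 2.09 to 44.3 ± 1.85 CPM (0.30, limma adjusted p = 0.00242).

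Of 58 further interferon-stimulated genes 30 were tested, 3 were higher, 3 were lower and 24 did not pass. This makes 20% called, beside 14.0% of all genes tested. Ube2l6, the conjugating enzyme of Isg15, had the largest change of the pathway genes tested, from 6.16, 8.23 and 6.92 CPM in wild type to 1.32, 3.08 and 2.42 CPM in the knockout (log2 fold change -1.34, SE 0.18, limma adjusted p = 3.26e-06). Its substrate Isg15 had 0 wild-type reads and 1 knockout read, and Uba7, the activating enzyme of the same cascade, was at most at 0.171 CPM in any library. Tap1, a peptide transporter of antigen presentation, and Zc3hav1, which binds viral RNA, fell by 0.75 and 0.33 on the log2 scale (limma adjusted p = 0.00287 and 0.00121). Samhd1, a deoxynucleotide hydrolase, Nampt, an enzyme of NAD synthesis, and Sp110, a nuclear body protein, rose by 0.17, 0.14 and 0.77 (limma adjusted p = 0.0129, 0.0125 and 0.0194). Of these, Samhd1 did not pass without wild-type replicates 1 or 2 or knockout replicate 3 (adjusted p up to 0.0788), Nampt without wild-type replicate 3 or knockout replicates 1 or 3 (up to 0.072), and Sp110 without wild-type replicates 2 or 3 or knockout replicate 3 (up to 0.125). Sp110 stood at 0.661 ± 0.529 and 1.77 ± 0.361 CPM.

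**Figure D5:**
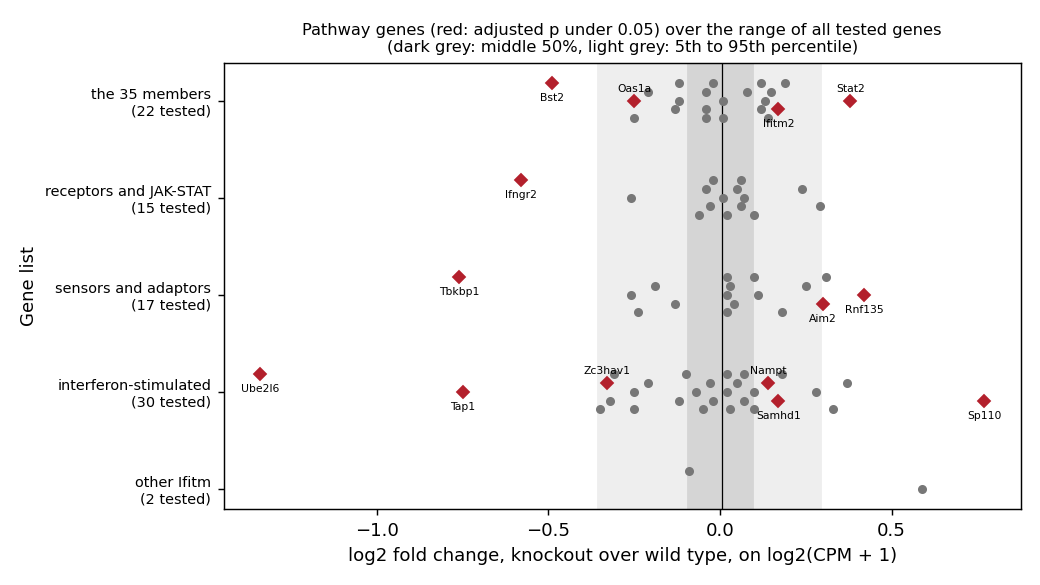
Log2 fold change, knockout over wild type, of the tested genes among the 35 members and in 4 further lists of the pathway; red diamonds mark genes with a limma adjusted p under 0.05, and the grey bands give the middle 50% and the 5th to 95th percentile of all 12435 genes tested. Called genes lie on both sides of 0 among the members, the sensors and adaptors and the interferon-stimulated genes.

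The authors' deposited table, made with edgeR from the same 6 libraries, gave the same 4 members an FDR under 0.05. Over the whole table, 1554 of 24421 genes had an FDR under 0.05. In the authors' deposited table the FDR was 7.4e-07 for Stat2, 0.00306 for Oas1a, 0.00568 for Bst2 and 0.0105 for Ifitm2, and the next member, Ifitm1, had 0.0903. Log2 fold changes in the authors' deposited table for genes near 0, such as 2.06 for Isg15 and -2.98 for Ifit3, rest on 1 and 3 reads.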

How the data were processed

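RNA of 3 wild-type and 3 Pml-/- libraries of E14 embryonic stem cells was analysed from 1 deposited table. An Illumina TruSeq RNA kit was used, per the labels' protocols. Per the submitters' processing notes, the tools were cutadapt, TopHat (build mm10) and edgeR. Strandedness, read length, tool versions, annotation and read counter: not given in the sources used here. For each gene the authors deposited, per the file headers, the CPM in each library and, from edgeR, a log2 fold change with its mean log2 CPM, p-value and FDR.

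Whole reads were recovered from the steps of the deposited CPM (100% of values whole within 0.01 of a read). The floor of 3 reads lies between 0.272 and 0.513 CPM in single libraries and covers counting error only. Of 25833 rows, 1097 without values and 315 identical repeats were removed, and 27 symbols turned into dates were kept unnamed. The filter was filterByExpr of edgeR 4.0.16 on recovered reads, which left 12435 genes. Limma 3.58.1 with a trend was run on log2(CPM + 1) with genotype as the single term, all libraries included, and Benjamini-Hochberg adjustment over all genes with a threshold of 0.05. The fit was tested on simulated data. Within groups, library pairs differed by more than sampling noise (chi-square per degree of freedom 1.33 to 1.64), and all libraries were counted.

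Gene extents and merged exon lengths came from GENCODE M21, and promoter windows from RefSeq GRCm38.p6. Alternatives were other pseudocounts, filters and scaling, edgeR, DESeq2 1.42.0, a replicate block and leaving out each library. The members and the lists were chosen with earlier results of these data known. The ratios between genes were not among the planned tests. Values per library are given for members past the test, for those that passed in an alternative, for the most abundant member of each role and for some others; Irf9, Parp9, Ifngr1, Uba7, Oas1g, Ifitm7 and the cell markers named were picked after their values were seen.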

Additional observations from a re-analysis of the deposited data

How the results depend on the processing

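Stat2 and Ifitm2 passed the test in all 14 alternatives, so the number of higher members was 2 in each of them. Lower members numbered 1 when low genes were not filtered out and 0 by DESeq2, where Oas1a and Bst2 had unadjusted p of 0.00534 and 0.0063, against 2 by edgeR; leaving out each library gave 1 to 2. DESeq2 called 334 genes higher and 468 lower over all genes and 1 pathway gene outside the set higher; leaving out each library gave 512 to 872 higher and 632 to 980 lower genes, and 2 to 8 higher and 5 to 8 lower pathway genes. Same-numbered libraries correlated by 0.076, 0.06 and 0.014 in their deviations from the group means. These deviations are in large part sampling noise (chi-square per degree of freedom 1.33 to 1.64 within groups), so such small values cannot exclude pairing. The labels state no pairing, and the main fit used none. Each library correlated best with its own number, but for knockout replicate 3 this was 0.014 beside 0.008 with wild-type replicate 2. Deviations within a group sum to 0 for each gene, so these correlations depend on each other, and no pairing is inferred from them. The replicate block gave 4 lower members, with Ifitm1 (limma adjusted p = 0.0389) and Ifitm3 (0.0334) added, and 8 higher and 8 lower pathway genes. Calls rose over all genes as well, to 1138 higher and 1199 lower, from 813 and 932 in the main fit. The block left the log2 fold changes of the members as in the main fit. For Pml the limma adjusted p went from 1.28e-20 to 1.4e-215. A value that small from 6 libraries rests on the error model of the fit, so the added calls are no sign of pairing. The lowest adjusted p given above for Stat2, Ifitm2 and Oas1a came from the same setting. Estimates near 0 changed sign only among members that did not pass in any of the alternatives. Leaving out each library gave log2 fold changes of -0.0478 to 0.2767 for Irf9, -0.1256 to 0.0125 for Ddx58, -0.0612 to 0.2543 for Dhx58, -0.0178 to 0.0429 for Mavs, -0.1337 to 0.1068 for Parp12, -0.1457 to 0.0945 for Parp14, -0.1121 to 0.0437 for Tbk1 and -0.1576 to 0.0459 for Xaf1. The cause of these changes was not tested. Depth limits the 13 members below the filter, which have at most 45 reads each.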
